A study of Mus musculus with 8 samples.

Results

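The comparison described here was the loss of Pparg in regulatory T cells (Tregs) of the mouse spleen, read across all measured genes. Its groups were defined by the sample titles and used no measured value, but the comparison was chosen with earlier results known. The 2 spleen libraries labelled Pparg KO were set against the 2 spleen libraries labelled Pparg WT, so 4 of the 8 libraries were compared. The other 4 libraries, 2 WT and 2 KO from skin, entered the same model to estimate the spread between libraries, and served as the tissue against which the spleen effect was compared. WT spleen libraries came from mice of the genotype Pparg+/+ Foxp3-Cre and KO spleen libraries from Ppargf/f Foxp3-Cre mice, so every mouse carried a Cre recombinase driven by Foxp3, the controls included. Mice were 2 weeks old (day 13 in the sample titles), received no treatment named in the labels, and 1000 cells sorted in 2 rounds went into each library. No group without Cre was analysed here. The sources used here give no sort gate, Cre strain or number of mice behind a library, and p-values therefore measure the spread between these libraries, which may be partly technical. Xist marked replicate 1 and Y-linked genes replicate 2 in every group, so that spread also includes any difference between the sexes.

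Tregs are CD4 T cells that depend on the transcription factor Foxp3 and restrain immune responses. PPARγ, the product of Pparg, is a nuclear receptor that binds fatty acids and related lipids, pairs with the retinoid X receptor on DNA, and is best known as the master regulator of fat cells. In Tregs it is known above all from visceral fat, where it supports a lipid-handling, tissue-resident programme. Most Tregs in the spleen are resting cells that recirculate through lymphoid organs, and a smaller effector population carries receptors for entry into tissues.

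The spleen libraries held between 3235884 and 3967008 counts, with 18573 to 19274 genes detected, and 12414 genes were tested. The 10 T cell and Treg markers were detected in all 4 libraries and summed to 6276 to 6548 CPM (counts scaled to the library total) in WT and 6403 to 6875 CPM in KO. Xist was detected in replicate 1 and Y-linked genes in replicate 2 of both genotypes. Of the markers of other cells, the CD8 T and NK cell list summed to 27.5 to 30.3 CPM in WT and 23.8 to 29.6 CPM in KO, with Klra8 at 0 and Ncr1 at most 0.515 CPM. The macrophage list summed to 13.9 to 50.7 CPM in WT and 29.97 to 71.6 CPM in KO, the highest value being in KO replicate 2, where Vcam1 alone was at 28.3 CPM, while Lyz2 was at most 0.504 CPM. The B cell list summed to 1055 to 1059 CPM in WT and 761 to 1009 CPM in KO, nearly all of it Ighm. Cd79b was at 46.9 and 40.8 CPM in WT and 24.7 and 26.8 CPM in KO, without overlap, and Ms4a1 was at most 1.29 CPM. The endothelial sum, 297 to 310 CPM in WT and 351 to 404 CPM in KO, was almost entirely Pecam1, and Cdh5 was at 0 in every spleen library. The plasma cell sum (156 to 199 CPM in WT and 88.6 to 147 CPM in KO) was mostly Xbp1. The dendritic cell sum was 51.9 to 52.2 CPM in WT and 57.9 to 60.3 CPM in KO. It was mostly Bst2, at 33.0 and 39.9 CPM in WT and 43.5 and 48.9 CPM in KO. Zbtb46 was at 9.08 and 7.73 CPM in WT and 13.5 and 9.53 CPM in KO. Xcr1 lay the other way, at 8.32 and 2.16 CPM in WT and 0.881 and 1.29 CPM in KO. The B cell, plasma cell, dendritic and endothelial sums thus did not overlap between the genotypes. Among all tested genes, 19.9% had both KO libraries below both WT libraries and 18.8% had both above. Their part in the results was not tested. The neutrophil, megakaryocyte, erythroid and stromal sums were at most 15.1 CPM in any spleen library. In bulk samples such as these, fewer cells of a type and less RNA per cell cannot be told apart.

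In KO spleen Tregs, genes called different were almost all lower. Of the 12414 genes, 34 (0.274%) were lower and 1 (0.00806%) was higher at an adjusted p under 0.05, 35 in all (0.282%), by edgeR's quasi-likelihood test with Benjamini-Hochberg adjustment. Levels below are CPM after scaling by the trimmed mean of M values (TMM) and are printed per library, replicate 1 first. Fold changes are those of the edgeR fit, whose prior count of 2 shrinks them at low counts, and carry their standard error (SE) on the log2 scale. The 34 lower genes were all protein coding, and for each of them both KO libraries lay below both WT libraries, which was so for 19.9% of all tested genes. Their fitted fold changes ran from 1.54-fold to 13.7-fold, the latter for Itga1, whose fitted value is held down by the prior count because it had no KO count, and 29 of the 34 exceeded 2-fold. The excess of lower genes was weaker without a threshold on the adjusted p: at an unadjusted p under 0.05 there were 972 genes (7.83%), 631 (5.08%) lower and 341 (2.75%) higher, and 50.4% of all genes were below 0 and 49.5% above 0 with a median log2 fold change of -0.002.

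**Figure D1:**
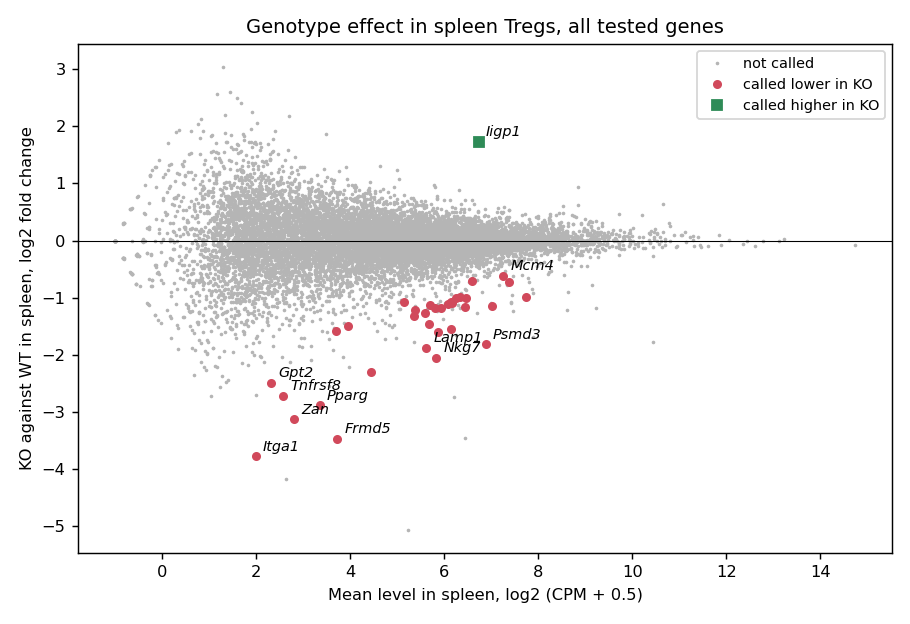
The log2 fold change of KO against WT in spleen (vertical axis) is plotted against the mean spleen level (horizontal axis, log2 of CPM + 0.5) for the 12414 tested genes. The 34 genes called lower (red) have fitted fold changes of 1.54-fold to 13.7-fold below WT, the latter for Itga1, which had 0 counts in KO, and Iigp1 (green) is the 1 gene called higher.

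The calls rested on a small number of libraries. Without KO replicate 2 only 7 genes passed and 32 of the 35 calls ended, without WT replicate 2 there were 9 and 28 ended, and without WT replicate 1 there were 16 and 25 ended. Without KO replicate 1 the count was 119, and 5 of the 35 ended. Leaving out a skin library gave 25 (KO skin replicate 1), 28 (KO skin replicate 2), 57 (WT skin replicate 1) and 61 (WT skin replicate 2) calls. A group left with 1 library was assumed to vary like the others. Such a group was also of a single sex, since Xist marked replicate 1 and Y-linked genes replicate 2, so the sexes were then unbalanced between the genotypes. Nkg7 was the 1 gene of the 35 that passed in each of the 20 alternative settings tried. Of 113 uncalled genes covered by the naming rule, 45 passed in 1 or more of the 20, so a gene given below as not passing is so for the fit described here.

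**Figure D2:**
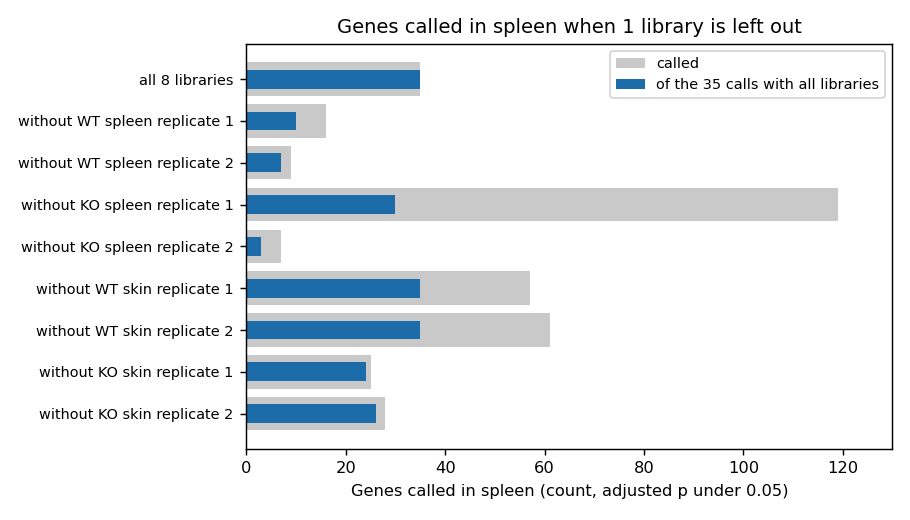
Bars give the number of genes called in spleen (adjusted p under 0.05) with all 8 libraries and with each library left out (grey), and how many of them were among the 35 calls made with all libraries (blue). The total falls to 7 without KO spleen replicate 2 and reaches 119 without KO spleen replicate 1.

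Pparg, the targeted gene, was read first as a check of the labels. Its spleen level was 22.5 and 12.3 CPM in WT (96 and 43 counts) and 2.16 and 1.66 CPM in KO (8 and 7 counts), so both KO libraries were far below both WT libraries. The change was 7.41-fold lower (log2 -2.89 ± 0.394 SE, edgeR adjusted p = 0.00418), but limma-voom gave an adjusted p of 0.0716, and without KO replicate 2 the edgeR adjusted p was 0.0602. The labels do not say which exons the floxed allele loses, and gene counts do not tell which exons the 8 and 7 KO counts came from. Foxp3 was at 203 and 174 CPM in WT and 197 and 190.3 CPM in KO, with the KO libraries inside the WT range, and did not pass (log2 0.04 ± 0.135 SE, edgeR adjusted p = 0.993). Of the list of PPAR and RXR receptors and their cofactors, 15 members were tested, Pparg was the 1 called, and the median of the list was 0.16. The coactivator gene Ncoa1 was at 15.9 and 16.0 CPM in WT and 32.6 and 24.9 CPM in KO, and Nr1h3, which encodes the oxysterol receptor LXRα, at 3.74 and 4.29 CPM in WT and 0.809 and 0.474 CPM in KO. The genotypes did not overlap for these 2 genes, and neither gene passed (edgeR adjusted p = 0.31 and 0.553).

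Promoters are shown for Pparg, for the 2 called genes of smallest p (Nkg7 and Frmd5) and for Tnfaip3, a gene that NF-kB is known to induce, because each holds a match to a motif of interest. The sequences are RefSeq's, on build GRCm38.p6, 5′ to 3′ on the gene's strand, and are cut from the 250 bases before the transcript start so that no annotated exon is included. The Pparg stretch is chr6:115362099-115362291 on the plus strand, before the second of its 3 listed starts. The Nkg7 stretch is chr7:43436888-43437072 on the plus strand, that of Frmd5 is chr2:121807088-121807307 on the minus strand, and that of Tnfaip3 is chr10:19015411-19015547 on the minus strand, upstream of the first of 2 listed starts and within an intron of a longer transcript. Capitals mark a match to a 10-base NF-kB site in Pparg and Tnfaip3, to TTCNNNGAA, the gamma-activated sequence bound by STAT factors, in Nkg7, and to AGGTCA, the nuclear receptor half-site, here on the opposite strand, in Frmd5.
Pparg: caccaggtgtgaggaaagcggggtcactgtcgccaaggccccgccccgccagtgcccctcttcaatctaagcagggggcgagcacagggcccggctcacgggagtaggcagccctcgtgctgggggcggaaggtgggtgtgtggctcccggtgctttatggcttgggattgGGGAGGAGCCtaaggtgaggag
Nkg7: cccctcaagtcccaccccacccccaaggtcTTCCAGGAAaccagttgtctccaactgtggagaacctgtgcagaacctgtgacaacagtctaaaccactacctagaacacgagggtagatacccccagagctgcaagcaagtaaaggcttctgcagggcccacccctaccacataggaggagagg
Frmd5: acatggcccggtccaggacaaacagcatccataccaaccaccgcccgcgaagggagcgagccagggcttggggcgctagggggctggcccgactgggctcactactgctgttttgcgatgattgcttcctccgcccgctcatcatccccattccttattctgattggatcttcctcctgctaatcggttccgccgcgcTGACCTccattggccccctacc
Tnfaip3: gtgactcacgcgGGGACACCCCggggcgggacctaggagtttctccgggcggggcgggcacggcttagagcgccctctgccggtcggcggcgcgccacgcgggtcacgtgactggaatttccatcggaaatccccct

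The promoter table held 22 of the 34 lower genes. In the 250 bases before any listed start, on either strand, the DR1 element, a direct repeat of AGGTCA with 1 base between to which PPAR and RXR bind as a pair, was found in none of the 22 and in 0.0407% of the 27025 genes of the table. The half-site AGGTCA was in 5 of the 22 (22.7%; Baz1b, Frmd5, Micu2, Pparg and Unc119b) and in 15.8% of the table, and any DR1 match contains it. The interferon-stimulated response element was in Lamp1 alone (4.55%, against 3.46%), and TTCNNNGAA in Nkg7 alone (4.55%, against 8.13%). The loose NF-kB pattern was in 5 of the 22 (22.7%; Baz1b, Pparg, Sh2b3, Tnfaip3 and Tnfrsf8), against 19.7% of the table. A match to these letters is a description of the sequence and does not show binding.

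Receptors, adhesion molecules and other surface or matrix proteins made up 6 of the lower genes described here and included the genes with the largest fold changes. The grouping by role was made after the values were seen. Itga1 (chromosome 13, 114953096 to 115101964), the α1 chain of a collagen-binding integrin, had 20 and 32 counts in the WT libraries and 0 in both KO libraries. It was at least 17.7-fold lower when the KO group is set to a floor of 3 counts (edgeR adjusted p = 0.0203). Frmd5 (chromosome 2, 121545529 to 121807087), a FERM-domain protein of cell junctions, was at 25.5 and 21.8 CPM in WT and 1.35 and 1.90 CPM in KO, 11.1-fold lower (log2 -3.48 ± 0.385 SE, edgeR adjusted p = 0.000351). Both KO libraries lay far below both WT libraries. Tnfrsf8 (chromosome 4, 145267137 to 145315164), which encodes the activation receptor CD30, was at 7.25 and 12.3 CPM in WT and near 1 CPM in KO (1.08 and 0.949), 6.60-fold lower (edgeR adjusted p = 0.0246).

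Tgfbr2 (chromosome 9, 116084293 to 116175360), the ligand-binding receptor chain for TGF-β, a cytokine that maintains Tregs, measured 204 and 209.8 CPM in WT and 131 and 120.3 CPM in KO. It changed by a small but even amount, 1.65-fold (log2 -0.72 ± 0.133 SE, edgeR adjusted p = 0.0246), with each pair of replicates close together. Nid2, a basement membrane protein, was at 17.8 and 20.03 CPM in WT and 6.20 and 5.69 CPM in KO (2.996-fold lower, edgeR adjusted p = 0.0224). Zan, known as a sperm surface protein, was at 10.3 and 13.7 CPM in WT and 1.08 and 0.712 CPM in KO (8.78-fold lower, edgeR adjusted p = 0.0246). Of these 6 genes only Frmd5 passed without KO replicate 2 (edgeR adjusted p = 0.141 to 0.333 for the other 5) and without WT replicate 2 (0.0804 to 0.23). The calls of Nid2, Tgfbr2 and Zan ended without WT replicate 1 (0.065 to 0.184), and that of Tnfrsf8 without KO replicate 1 (0.0512). By limma-voom Tgfbr2 alone kept its call (0.0551 to 0.308 for the other 5), and with the spleen libraries alone the calls of Nid2 and Tnfrsf8 ended (0.0684 to 0.108). By DESeq2, Zan received no adjusted p.

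Effector genes among the calls were Nkg7 and Zbtb32. Nkg7 (chromosome 7, 43437073 to 43438249), a membrane protein of the granules of cytotoxic lymphocytes, was at 74.9 and 108 CPM in WT and 20.5 and 22.5 CPM in KO. The KO libraries were close together and far below both WT libraries, a 4.14-fold difference (log2 -2.05 ± 0.179 SE, edgeR adjusted p = 1.96e-05, range over the alternatives 1.52e-28 to 0.00234). The CD8 and NK cell markers overlapped between the genotypes in sum (values above). Cd8a was at 1.26 and 0.618 CPM in WT and 0 in both KO libraries, Cd8b1 at 10.6 and 16.4 CPM in WT and 14.1 and 17.8 CPM in KO, and Prf1 at 14.6 and 9.58 CPM in WT and 5.88 and 9.53 CPM in KO, all as a share of the library total. Their part in the Nkg7 value was not tested. Zbtb32 (chromosome 7, 30589681 to 30598909), a zinc finger repressor induced in activated lymphocytes, was at 63.7 and 91.0 CPM in WT and 36.4 and 31.1 CPM in KO, 2.27-fold lower (log2 -1.18 ± 0.214 SE, edgeR adjusted p = 0.0246). Its groups did not overlap, and its call ended without WT replicate 2 (0.339), without KO replicate 2 (0.305) and in the fit to the spleen libraries alone (0.0523).

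**Figure D3:**
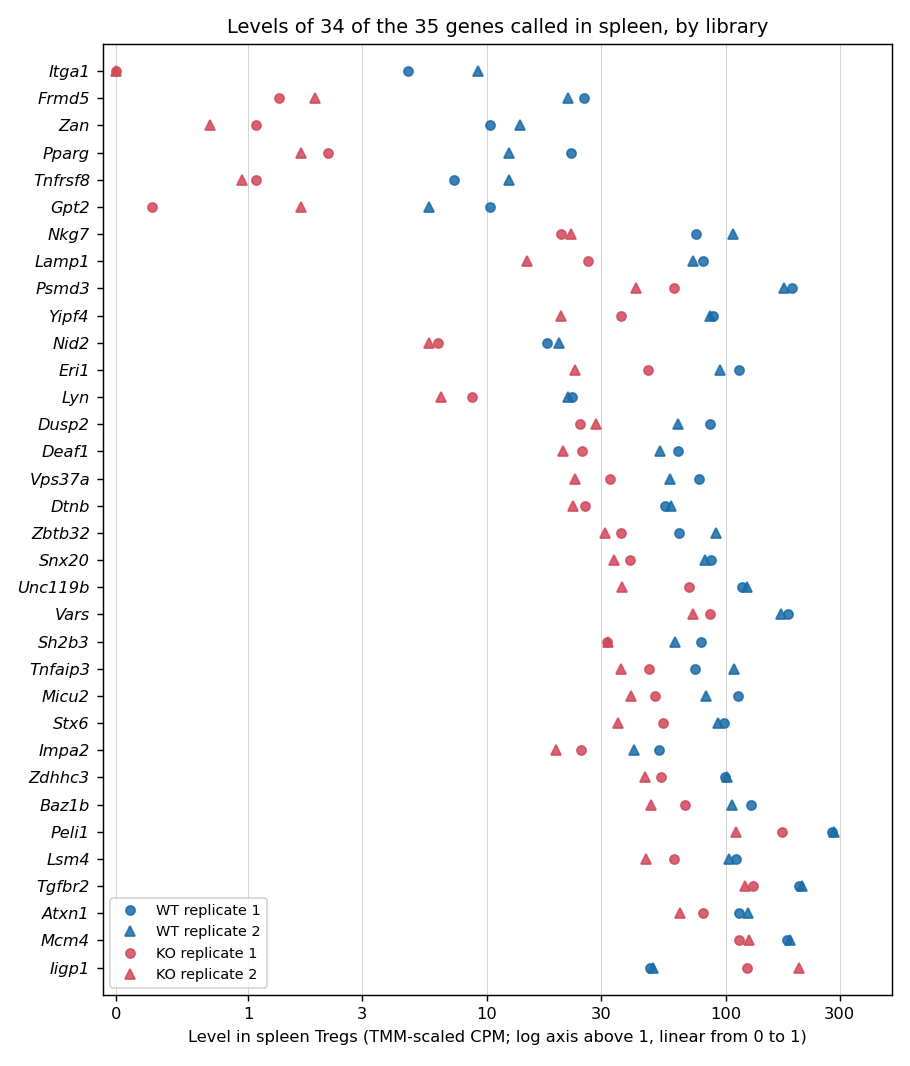
Points give the TMM-scaled CPM (horizontal axis, linear up to 1 and logarithmic above) of 34 of the 35 called genes in each spleen library, WT in blue and KO in red, replicate 1 as circles and replicate 2 as triangles, ordered by fold change. In every row the WT and KO libraries are apart, from 0 in both KO libraries for Itga1 to 123 and 203 CPM in KO for Iigp1.

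Another 5 of the lower genes act in intracellular signalling and its feedback. Dusp2 (chromosome 2, 127336159 to 127338376), a nuclear phosphatase that switches off MAP kinases and is induced by T cell receptor signals, was at 85.9 and 63.2 CPM in WT and 24.5 and 28.7 CPM in KO, 2.77-fold lower (log2 -1.47 ± 0.227 SE, edgeR adjusted p = 0.0109). Lyn, a Src-family kinase best known from B cells and myeloid cells, was at 22.7 and 21.8 CPM in WT and 8.63 and 6.41 CPM in KO (2.84-fold, log2 -1.51 ± 0.233 SE, edgeR adjusted p = 0.0109). For both genes both WT libraries lay far above both KO libraries. The B cell sum and Cd79b were lower in both KO than in both WT libraries, the macrophage sum overlapped between the genotypes (values above), and their part in the Lyn value was not tested. Tnfaip3 (chromosome 10, 19000910 to 19015657), which encodes the ubiquitin-editing enzyme A20 that limits NF-kB, was at 74.2 and 109 CPM in WT and 47.7 and 36.3 CPM in KO (2.16-fold, log2 -1.11 ± 0.187 SE, edgeR adjusted p = 0.0289). Its WT libraries were spread, and all lay above the KO libraries. Peli1, an E3 ubiquitin ligase of the Pellino family that restrains T cell activation, measured 279 and 285 CPM in WT and 172 and 111 CPM in KO, with KO replicate 2 the lowest (1.99-fold, edgeR adjusted p = 0.0224). Sh2b3, the adaptor LNK that dampens cytokine receptor signals, was at 78.6 and 61.5 CPM in WT and 31.8 and 32.0 CPM in KO (2.18-fold, edgeR adjusted p = 0.0369).

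None of these 5 calls held without KO replicate 2 (edgeR adjusted p = 0.071 to 0.327). Without WT replicate 1 those of Dusp2, Peli1 and Sh2b3 ended (0.0899 to 0.511), without WT replicate 2 those of Peli1, Tnfaip3 and Sh2b3 (0.121 to 0.133), without KO replicate 1 that of Sh2b3 (0.0888), and without KO skin replicate 1 or 2 those of Tnfaip3 and Sh2b3 (0.0535 to 0.101). Those of Lyn and Tnfaip3 also ended by limma-voom (0.0636 to 0.0716) and with the spleen libraries alone (0.0744 to 0.109), and that of Sh2b3 with an offset for GC content (0.0546).

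Metabolic enzymes and transport regulators contributed 4 lower genes. Gpt2 (chromosome 8, 85492576 to 85527560), the mitochondrial alanine aminotransferase, was at 10.3 and 5.72 CPM in WT and 0.270 and 1.66 CPM in KO, 5.62-fold lower (log2 -2.49 ± 0.443 SE, edgeR adjusted p = 0.0246), with 44 and 20 counts in WT and 1 and 7 in KO. The 2 KO libraries differed from each other at these few counts, and without KO replicate 2 the log2 fold change was -3.40. Vars (chromosome 17, 35000987 to 35016322), the valyl-tRNA synthetase, was at 183 and 170.0 CPM in WT and 86.3 and 73.1 CPM in KO (2.21-fold, log2 -1.14 ± 0.179 SE, edgeR adjusted p = 0.012), with the replicates of each genotype close together. Micu2, a regulator of the mitochondrial calcium uniporter, was at 112 and 82.4 CPM in WT and 50.7 and 40.1 CPM in KO (2.14-fold, edgeR adjusted p = 0.0445). Impa2, an inositol monophosphatase, was at 52.7 and 41.2 CPM in WT and 24.8 and 19.5 CPM in KO (2.10-fold, edgeR adjusted p = 0.0456). The 2 genotypes did not overlap for either gene. Vars, Micu2 and Impa2 lost their calls without WT replicate 2 (0.0681 to 0.0804) and without KO replicate 2 (0.141 to 0.534), all 4 genes without WT replicate 1 (0.0855 to 0.502), Gpt2 without KO replicate 1 (0.0547), Micu2 and Impa2 without KO skin replicate 1 (0.0504 to 0.0854) and Impa2 without KO skin replicate 2 (0.0828). By limma-voom Gpt2 and Impa2 ended (0.112 to 0.269), with the spleen libraries alone Gpt2, Micu2 and Impa2 (0.0519 to 0.188), with upper-quartile scaling or no robust estimation Micu2 and Impa2 (0.0543 to 0.0658), and with RLE scaling or the GC offset Impa2 (0.052 to 0.0546). With a replicate block added to the spleen libraries alone, Gpt2 ended (edgeR adjusted p = 0.0572).

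Proteins of membranes, vesicles and their sorting formed another group of 7. Lamp1 (chromosome 8, 13159161 to 13175338), the abundant glycoprotein of the lysosomal membrane, was at 80.5 and 73.0 CPM in WT and 26.4 and 14.7 CPM in KO, 3.68-fold lower (log2 -1.88 ± 0.267 SE, edgeR adjusted p = 0.00553). Yipf4 (chromosome 17, 74489493 to 74500277), a Golgi membrane protein, was at 88.2 and 85.9 CPM in WT and 36.4 and 20.4 CPM in KO (3.04-fold, log2 -1.60 ± 0.253 SE, edgeR adjusted p = 0.0117). In both genes the WT libraries were close together and KO replicate 2 was well below KO replicate 1. Stx6, a SNARE of the trans-Golgi network, was at 98.3 and 93.3 CPM in WT and 54.8 and 35.3 CPM in KO, and Zdhhc3, a Golgi palmitoyltransferase, at 99.7 and 101 CPM in WT and 53.7 and 45.8 CPM in KO. Snx20, a sorting nexin of blood cells, was at 86.6 and 81.6 CPM in WT and 39.7 and 34.2 CPM in KO, Vps37a, a subunit of the ESCRT-I complex, at 77.2 and 58.4 CPM in WT and 32.6 and 23.2 CPM in KO, and Unc119b, a carrier of myristoylated proteins, at 117 and 123 CPM in WT and 70.1 and 36.8 CPM in KO. These 5 genes were 2.01-fold (Zdhhc3) to 2.41-fold (Vps37a) lower, with edgeR adjusted p-values of 0.0246 to 0.0428. In each of the 7 genes KO replicate 2 was the lowest library, against 49.9% of all tested genes in which it lay below KO replicate 1.

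No call of these 7 held without KO replicate 2 (edgeR adjusted p = 0.0845 to 0.57). Lamp1 alone held without WT replicate 1 (0.065 to 0.475 for the other 6) or WT replicate 2 (0.0691 to 0.262), and those of Stx6 and Unc119b also ended without KO skin replicate 1 or 2 (0.0591 to 0.0905). With upper-quartile scaling, no robust estimation or the spleen libraries alone those of Stx6, Unc119b and Vps37a ended (0.0519 to 0.0908), and with the GC offset that of Unc119b (0.0546).

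A further 7 lower genes act in the nucleus, in RNA processing or in protein turnover. Psmd3 (chromosome 11, 98682554 to 98695979), a subunit of the regulatory particle of the proteasome, was at 190.0 and 175 CPM in WT and 60.7 and 42.2 CPM in KO, 3.53-fold lower (log2 -1.82 ± 0.267 SE, edgeR adjusted p = 0.0203). The other 35 proteasome subunits tested did not pass, and the median of the 36 was -0.01 (0.03 without WT replicate 1). Eri1, an exoribonuclease that trims histone messenger RNA ends, was at 113 and 94.7 CPM in WT and 47.5 and 23.2 CPM in KO (2.93-fold, log2 -1.55 ± 0.267 SE, edgeR adjusted p = 0.0246), with KO replicate 2 the lowest. Mcm4 (chromosome 16, 15623897 to 15637400), a subunit of the replicative helicase, showed the smallest change of the 34, 1.54-fold (log2 -0.62 ± 0.119 SE, edgeR adjusted p = 0.0303), from 180.0 and 187 CPM in WT to 114 and 125 CPM in KO, with each genotype's libraries close together. Baz1b, a chromatin remodelling subunit, was at 128 and 106 CPM in WT and 67.7 and 48.6 CPM in KO, Deaf1, a transcription factor, at 63.2 and 52.9 CPM in WT and 25.1 and 20.9 CPM in KO, Lsm4, of the protein ring that binds spliceosomal and decaying RNA, at 110.0 and 104 CPM in WT and 61.0 and 46.3 CPM in KO, and Atxn1, a transcriptional co-repressor, at 113 and 124 CPM in WT and 80.4 and 64.3 CPM in KO. These 4 were 1.64-fold (Atxn1) to 2.50-fold (Deaf1) lower, with adjusted p-values of 0.0246 (Baz1b) to 0.0424 (Lsm4) by edgeR. None of the 7 calls held without KO replicate 2 (0.141 to 0.534), WT replicate 1 (0.0855 to 0.386) or WT replicate 2 (0.0681 to 0.263). That of Mcm4 ended without KO replicate 1 (0.132), those of Eri1, Atxn1, Mcm4 and Lsm4 without KO skin replicate 1 (0.0506 to 0.0621), and those of Eri1, Mcm4 and Lsm4 without KO skin replicate 2 (0.0519 to 0.0535). Those of Baz1b, Atxn1 and Mcm4 ended with the spleen libraries alone (0.0519 to 0.109), that of Atxn1 by limma-voom (0.0551), and that of Lsm4 with upper-quartile scaling, no robust estimation or the GC offset (0.0543 to 0.0601). Dtnb, which encodes β-dystrobrevin and fitted no group, was at 55.5 and 59.0 CPM in WT and 25.6 and 23.0 CPM in KO (2.32-fold lower, edgeR adjusted p = 0.0246). Its call ended without WT replicate 1 (0.166), WT replicate 2 (0.23) or KO replicate 2 (0.305).

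The 1 gene called higher in KO was Iigp1 (chromosome 18, 60376027 to 60392634), an interferon-inducible GTPase that attacks the vacuoles of intracellular microbes. It was at 48.0 and 49.8 CPM in WT and 123 and 203 CPM in KO, 3.31-fold higher (log2 1.73 ± 0.280 SE, edgeR adjusted p = 0.0289). The WT libraries were nearly equal, KO replicate 1 was well above them and KO replicate 2 higher again. Its call ended without WT replicate 1 (0.449), WT replicate 2 (0.418), KO replicate 2 (0.135), KO skin replicate 1 (0.102) or KO skin replicate 2 (0.101).

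Gene lists put the single calls beside the other members of their pathways. They are described by counts and medians, since they were drawn up with earlier results of these data known, and a share is to be read against all tested genes (5.08% lower and 2.75% higher at an unadjusted p under 0.05, 50.4% below 0). Of 40 effector and tissue Treg genes, none rose. At an unadjusted p under 0.05, 19 (47.5%) were lower and 1 higher, 34 of 40 were below 0, and the median log2 fold change was -0.46 (range over the alternatives -0.65 to -0.37). Cxcr6, a chemokine receptor of tissue-resident T cells, was at 154 and 160.0 CPM in WT and 20.8 and 7.35 CPM in KO and just missed the threshold (log2 -3.46 ± 0.382 SE, edgeR adjusted p = 0.0501). It passed in 12 of the 20 alternatives (adjusted p from 9.93e-11 to 0.428). Nfil3, a transcription factor of effector lymphocytes, was at 29.0 and 21.2 CPM in WT and 8.36 and 1.90 CPM in KO (edgeR adjusted p = 0.106). Maf, which drives Il10, was at 94.3 and 88.7 CPM in WT and 65.3 and 55.3 CPM in KO (0.106). The calcium-binding protein gene S100a6 was at 218 and 201 CPM in WT and 146 and 105 CPM in KO (edgeR adjusted p = 0.111). Klrg1, an inhibitory receptor of terminally differentiated T cells, was at 231 and 232 CPM in WT and 109.5 and 108 CPM in KO (0.226). In all 5 genes, named for their small p, both KO libraries lay below both WT libraries. That was so for 27 of the 40 list members (67.5%) and for 19.9% of all tested genes.

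Of 24 genes of resting lymphoid T cells, none passed. At an unadjusted p under 0.05, 6 (25%) were higher and none lower, 21 of 24 were above 0, and the median was 0.27 (range over the alternatives 0.26 to 0.34). Ccr7, the receptor that guides T cells into lymph nodes, was at 665 and 751 CPM in WT and 971 and 976 CPM in KO (log2 0.46 ± 0.117 SE, edgeR adjusted p = 0.137). Bcl2, the survival factor, was at 375 and 363 CPM in WT and 469 and 526 CPM in KO, the kinase gene Txk at 161 and 176 CPM in WT and 227 and 233 CPM in KO, Lef1, a transcription factor of naive T cells, at 381 and 384 CPM in WT and 463 and 477 CPM in KO, and Satb1, a genome organiser, at 299 and 285 CPM in WT and 412 and 399.5 CPM in KO. For these 5 genes, named for their small p, both KO libraries were above both WT libraries. That was so for 16 of the 24 list members (66.7%) and for 18.8% of all tested genes. Of 22 Treg identity genes none passed and the median was 0.04: the ectoenzyme gene Nt5e was at 237 and 281 CPM in WT and 341 and 353 CPM in KO, and Capg, an actin-capping protein gene, at 513 and 509 CPM in WT and 446 and 409 CPM in KO.

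**Figure D4:**
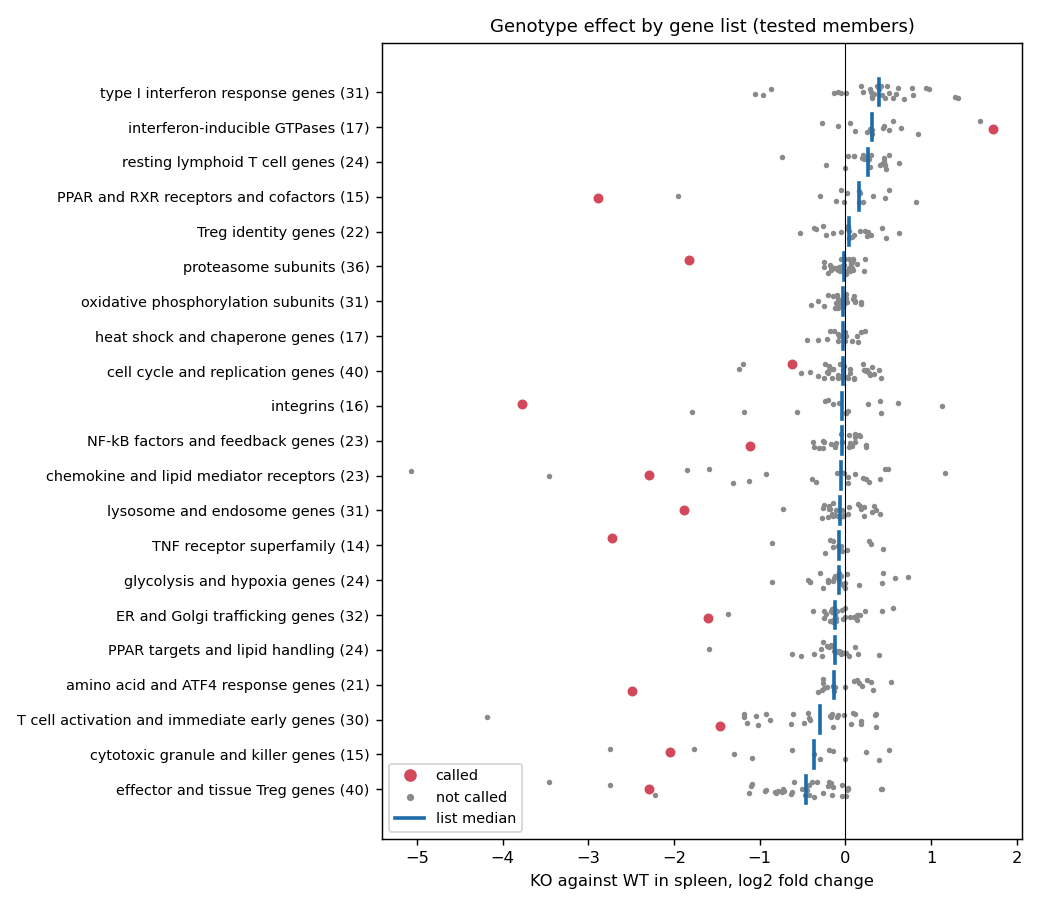
Each point is the log2 fold change of KO against WT in spleen for 1 tested member of the list named on the vertical axis, with the number of tested members in brackets; red points passed at an adjusted p under 0.05 and blue ticks are list medians. Medians run from -0.46 for effector and tissue Treg genes to 0.40 for type I interferon response genes, and no list has more than 1 member that passed.

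Among 23 receptors for chemokines and lipid mediators none rose, with 7 (30.4%) lower and 3 higher at an unadjusted p under 0.05 and a median of -0.05. Ltb4r1, the high-affinity receptor for leukotriene B4, had the largest fitted change of the list, from 79.8 and 65.5 CPM in WT to 2.698 and 0.712 CPM in KO (log2 -5.07 ± 0.795 SE). It did not pass (edgeR adjusted p = 0.187) although both KO libraries held a small fraction of the WT level. It passed in 8 of the 20 alternatives, among them DESeq2 (adjusted p = 3.7e-09), the spleen libraries alone (6.56e-05) and no robust estimation (0.000293), and its adjusted p ranged from 5.07e-10 to 0.834 over all 20. Ccr1, a receptor for inflammatory chemokines, was at 4.68 and 4.29 CPM in WT and 0.809 and 1.42 CPM in KO (edgeR adjusted p = 0.187). Of 16 integrins, Itga1 fell and 15 did not pass. Itgb7, the chain of the gut-homing integrin α4β7, was at 2347 and 1947 CPM in WT and 849 and 396 CPM in KO, and Itgb1, the partner of the α1 chain, at 835 and 832 CPM in WT and 541 and 194 CPM in KO. In both the WT libraries were alike and KO replicate 2 was far below KO replicate 1, and neither passed (edgeR adjusted p = 0.402 and 0.736). The αv chain gene Itgav was at 54.3 and 45.2 CPM in WT and 36.7 and 30.4 CPM in KO (edgeR adjusted p = 0.341).

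Of 15 cytotoxic granule and killer cell genes, Nkg7 fell and 14 did not pass; 6 (40.0%) were lower and none higher at an unadjusted p under 0.05, and the median was -0.36 (-0.62 to -0.21 over the alternatives). Gzmb, the granule protease granzyme B, was at 143 and 112 CPM in WT and 18.6 and 18.5 CPM in KO (log2 -2.75 ± 0.593 SE, edgeR adjusted p = 0.364), with nearly equal KO libraries. It passed in 8 of the 20 alternatives, among them the spleen libraries alone (6.56e-05), DESeq2 (4.07e-05) and no robust estimation (0.00356), and its adjusted p ranged from 5.07e-10 to 0.991. Ccl5, a chemokine stored with cytotoxic granules, was at 34.9 and 91.3 CPM in WT and 22.4 and 13.8 CPM in KO (0.135). Tbx21, which encodes the transcription factor T-bet, was at 10.1 and 34.9 CPM in WT and 6.74 and 3.32 CPM in KO (0.198). In the last 2 genes WT replicate 2 stood well above WT replicate 1. Of 14 TNF receptor family members, Tnfrsf8 fell and 13 did not pass, among them the death receptor gene Fas at 95.5 and 102 CPM in WT and 124 and 144 CPM in KO. Of 23 NF-kB factors and feedback genes, Tnfaip3 fell and 22 did not pass, with a median of -0.04 that turned to 0.03 with a correction for GC content. The NF-kB subunit gene Nfkb1 was at 223 and 173 CPM in WT and 164 and 141 CPM in KO (edgeR adjusted p = 0.635).

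T cell activation and immediate early genes had Dusp2 lower and 29 of 30 that did not pass, with 11 (36.7%) lower and 2 higher at an unadjusted p under 0.05 and a median of -0.30 (-0.38 to -0.16 over the alternatives). Ier2, an immediate early gene, was at 124 and 96.7 CPM in WT and 61.5 and 35.8 CPM in KO (edgeR adjusted p = 0.182). Dusp5, a phosphatase of ERK, was at 26.0 and 32.3 CPM in WT and 18.1 and 19.5 CPM in KO (0.397). The early activation antigen gene Cd69 lay the other way, at 240.1 and 289.6 CPM in WT and 322 and 354 CPM in KO (edgeR adjusted p = 0.269). Heat shock and chaperone genes, which respond to handling, had no call among 17 and a median of -0.03, with Hsph1 at 88.7 and 107 CPM in WT and 73.6 and 69.3 CPM in KO. The sort and handling of the 2 genotypes are not described separately in the labels.

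Interferon-responsive genes lay on the higher side. Of 31 type I interferon response genes none passed, 6 (19.4%) were higher and none lower at an unadjusted p under 0.05, 25 were above 0 and the median was 0.40 (0.21 without KO replicate 2 to 0.60 without KO replicate 1). Irf9, a subunit of the interferon-activated transcription factor complex, was at 211 and 215 CPM in WT and 255 and 314 CPM in KO (edgeR adjusted p = 0.321). Ifi27l2a was at 288 and 322 CPM in WT and 360.4 and 495 CPM in KO (0.332), Zbp1, a sensor of Z-form nucleic acids, at 58.7 and 78.4 CPM in WT and 79.9 and 122 CPM in KO (0.428). Rtp4 was at 34.4 and 48.9 CPM in WT and 46.9 and 96.1 CPM in KO (0.434). KO replicate 2 was the highest library for each of these 4 genes, and KO replicate 1 lay inside or near the WT range for Zbp1 and Rtp4. Of 17 interferon-inducible GTPases, Iigp1 rose and 16 did not pass, 15 were above 0 and the median was 0.32. Ifi47 was at 351 and 365 CPM in WT and 432 and 542 CPM in KO (edgeR adjusted p = 0.212). Gvin1, whose near-identical copies may share its reads, was at 2.11 and 2.00 CPM in WT and 6.74 and 7.59 CPM in KO (0.429).

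The lists of lipid and energy metabolism had no call in spleen, and that of amino acid and ATF4 response genes had 1, Gpt2. Of 24 PPAR target and lipid-handling genes none passed, 19 were below 0 and the median was -0.12. Plin2, which coats lipid droplets and is a well-known PPAR target, was at 28.6 and 42.1 CPM in WT and 8.63 and 13.8 CPM in KO and missed the threshold narrowly (log2 -1.59 ± 0.299 SE, edgeR adjusted p = 0.0516), with no overlap between the genotypes. Acadm and Acadl, dehydrogenases of fatty acid oxidation, were at 44.9 and 40.1 CPM in WT and 48.6 and 63.1 CPM in KO, and at 107 and 109 CPM in WT and 89.6 and 91.6 CPM in KO. Dgat1, the enzyme that completes triglyceride synthesis, was at 30.2 and 34.1 CPM in WT and 34.5 and 15.7 CPM in KO (log2 -0.36 ± 0.291 SE), and its sign turned to 0.11 without KO replicate 2. None of 24 glycolysis and hypoxia genes passed (median -0.07), with P4ha1, a collagen prolyl hydroxylase, at 126 and 118 CPM in WT and 208 and 159 CPM in KO and the lactate transporter gene Slc16a3 at 13.3 and 16.6 CPM in WT and 23.2 and 26.8 CPM in KO. None of 31 oxidative phosphorylation subunits passed (median -0.03, and 0.0019 with upper-quartile scaling), the lowest p being that of Cyc1, a subunit of complex III, at 190.0 and 205 CPM in WT and 159.7 and 139.7 CPM in KO. Of 21 amino acid and ATF4 response genes Gpt2 fell and 20 did not pass (median -0.13).

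The lists of cell cycle, lysosome and endosome, and ER and Golgi trafficking genes each had a single call. The called genes Stx6, Zdhhc3, Snx20, Vps37a and Unc119b, grouped with trafficking above, are on none of these lists. Of 40 cell cycle and replication genes Mcm4 fell and 39 did not pass, with a median of -0.03. The replication licensing factor gene Cdc6 was at 11.7 and 14.6 CPM in WT and 7.28 and 3.32 CPM in KO (edgeR adjusted p = 0.229). Gins2, part of the replicative helicase, was at 13.1 and 10.3 CPM in WT and 5.93 and 3.80 CPM in KO (0.241). The mitotic cyclin gene Ccnb2 lay the other way, at 102 and 109 CPM in WT and 132 and 131 CPM in KO (0.614). Of 31 lysosome and endosome genes Lamp1 fell and 30 did not pass, with a median of -0.06 that was 0.0037 without WT replicate 1. Of 32 ER and Golgi trafficking genes Yipf4 fell and 31 did not pass (median -0.12), with Rab6a, a Golgi GTPase, at 97.4 and 81.9 CPM in WT and 47.5 and 21.6 CPM in KO (0.0885) and the coat protein gene Sec24a at 75.8 and 72.1 CPM in WT and 114 and 103 CPM in KO (0.269).

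Genes next to the threshold extended both sides. Rilpl2, an effector of Rab GTPases, was at 252 and 233 CPM in WT and 173 and 147 CPM in KO (edgeR adjusted p = 0.0501). Plbd2, a lysosomal phospholipase-like protein, was at 47.3 and 47.8 CPM in WT and 18.6 and 9.96 CPM in KO (0.057), the neuritin gene Nrn1 at 16.4 and 16.6 CPM in WT and 5.67 and 4.51 CPM in KO (0.057), and the forkhead factor gene Foxo3 at 51.7 and 61.2 CPM in WT and 28.9 and 21.4 CPM in KO (0.0696). In these 4 genes, named for their small p, both KO libraries lay below both WT libraries, as in 19.9% of all tested genes. On the higher side the nearest was Smyd4, a SET-domain protein, at 20.8 and 16.0 CPM in WT and 34.0 and 54.3 CPM in KO (0.0675). Igf2r, the receptor that carries lysosomal enzymes, was at 296 and 287 CPM in WT and 371 and 511 CPM in KO (0.111). Tsc22d3, the glucocorticoid-induced leucine zipper gene, was at 261 and 369 CPM in WT and 549 and 660.0 CPM in KO (0.15), and passed in 10 of the 20 alternatives (adjusted p from 7.78e-12 to 0.695). Uckl1os, an antisense transcript, was at 1.87 and 1.72 CPM in WT and 9.71 and 10.4 CPM in KO, but its reads may belong to the gene on the other strand, since the sources used here do not say whether the counting used strand.

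Detection in 1 genotype alone was rare. With at least 10 counts in each library of 1 genotype and 0 in both of the other, Itga1 was the 1 gene present in WT only. The predicted gene Gm19552, named here after its values were seen, had 13 and 18 counts in KO and 0 in WT, at least 10.1-fold higher against the floor of 3 counts over the WT group, and did not pass the test. Olfr56 had 1 count in WT and 27 in KO, a ratio of 26.5 (exact binomial 95% interval 4.36 to 1084), and did not pass (edgeR adjusted p = 0.131). Its annotated span contains that of Ifi47 on the same strand, and how reads were assigned between them is not given. Lif, a cytokine of the interleukin-6 family, was at 0.936 and 0 CPM in WT and 2.97 and 6.88 CPM in KO (edgeR adjusted p = 0.182). Such intervals and floors cover counting error only.

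The spleen effect was then set beside the effect in skin, which shares no library with it but shares the scaling and the estimate of spread. In skin 111 genes (0.894%) passed, 73 (0.588%) lower and 38 (0.306%) higher. Of the 34 genes lower in KO spleen, 6 were also called lower in KO skin (Nkg7, Frmd5, Pparg, Itga1, Gpt2 and Zbtb32), which is 17.6% of the spleen list and 8.22% of the skin list, 2 were called higher in skin (Vars and Psmd3) and 26 did not pass there. In all, 15 of the 34 were below 0 and 19 above 0 in skin, where 48.9% of all genes were below 0 and 50.9% above 0. Below 0 in skin were 4 of the 6 receptor and surface genes (median -1.01), 2 of the 7 trafficking genes (median 0.01) and 1 of the 7 genes of the nucleus, RNA and protein turnover (median 0.21). These groups were made after the values were seen, and differences between them were not tested. Iigp1 was called higher in both tissues (log2 1.73 ± 0.280 SE in spleen and 1.66 in skin).

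**Figure D5:**
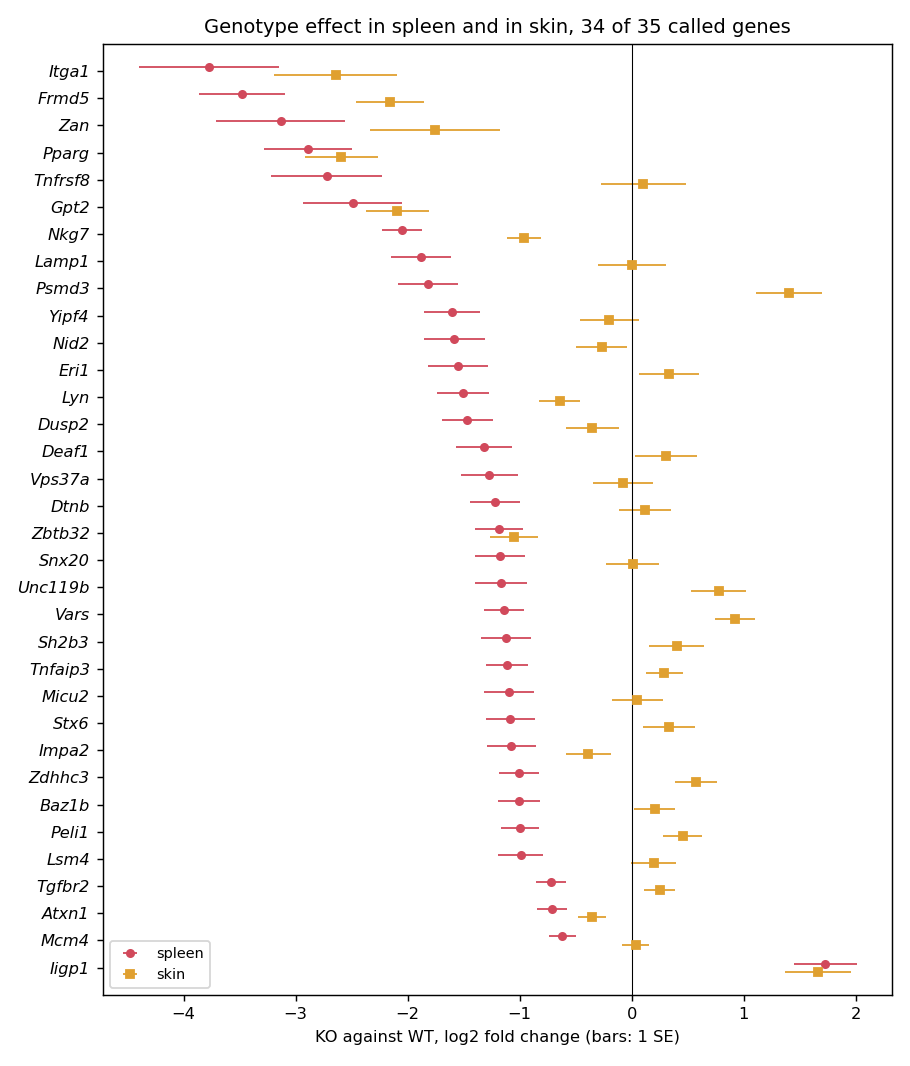
The log2 fold change of KO against WT with its standard error is drawn for 34 of the 35 called genes in spleen (red circles) and in skin (yellow squares). Each lower gene drawn lies left of 0 in spleen, while 19 of them lie right of 0 in skin, the farthest being Psmd3 at 1.41.

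A test of the difference between the tissues' effects called 12 genes (0.0967%), 9 (0.0725%) more negative and 3 (0.0242%) more positive in spleen, against 1178 (9.49%) at an unadjusted p under 0.05, and 5 of the 12 were among the 34. In spleen, Vars was at 183 and 170.0 CPM in WT and 86.3 and 73.1 CPM in KO, but in skin at 72.8 and 108 CPM in WT and 150.4 and 191 CPM in KO, and the difference was -2.06 ± 0.253 SE (edgeR adjusted p = 0.00446). It was called lower in spleen and higher in skin, and its difference passed in each alternative run. Psmd3 likewise fell in spleen and rose in skin, from 14.6 and 31.3 CPM in WT to 52.6 and 67.6 CPM in KO, a difference of -3.23 ± 0.397 SE (edgeR adjusted p = 0.0114). Zdhhc3 (-1.58 ± 0.261 SE, 0.0202), Peli1 (-1.45 ± 0.242 SE, 0.0257) and Unc119b (-1.94 ± 0.338 SE, 0.0257) were called lower in spleen and were above 0 in skin without passing there. Of these 5, the calls of Zdhhc3, Peli1 and Unc119b ended without WT spleen replicate 1, WT spleen replicate 2, WT skin replicate 1, KO skin replicate 1 or KO skin replicate 2, that of Zdhhc3 also without KO spleen replicate 2, and that of Psmd3 without WT spleen replicate 2, KO skin replicate 1 or KO skin replicate 2. Over all 12 genes, the calls that ended this way had edgeR adjusted p-values of 0.0604 to 0.195. Without robust estimation 6 of the 12 calls ended, among them Peli1 and Unc119b (edgeR adjusted p = 0.0548 to 0.0583 for the 6). For the other 29 of the 34 genes, among them Pparg (-0.30 ± 0.308 SE, edgeR adjusted p = 0.845), Zbtb32 (-0.13 ± 0.298 SE, 0.95) and Nkg7 (-1.09 ± 0.233 SE, 0.0717), the difference did not pass, which does not show that the effects were alike.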

How the data were processed

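RNA of sorted Tregs was primed with oligo(dT), amplified by limited PCR, tagmented and sequenced as 2 reads of 25 bases per fragment, per the labels' protocols. The authors deposited raw counts per gene symbol in 1 table of 8 libraries; per the submitters' processing notes they used STAR 2.7.3a and featureCounts on build mm10. How genes were annotated, whether strand was used and how multi-mapped reads were treated is not given in the sources used here; antisense genes and near-identical copies are therefore uncertain. The reads carry no molecular identifiers.

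From the counts, 12414 of 55011 symbols (28902 with any count) passed edgeR's filterByExpr at a minimum count of 10. edgeR 4.0.16 (R 4.3.3) was fitted to all 8 libraries with 1 coefficient per group, TMM scaling, robust quasi-likelihood dispersion and a prior count of 2, with Benjamini-Hochberg adjustment over all tested genes and calls made at 0.05. The libraries had a common biological coefficient of variation of 17.5%. SE is the absolute log2 fold change divided by the square root of F. Replicates of a group differed by more than counting noise (chi-square per degree of freedom 4.22 in WT and 5.39 in KO spleen). Positions are from GENCODE M21, in which 12221 symbols (98.4%) were found, and promoters from RefSeq's table for GRCm38.p6. Exact permutation of 2 against 2 libraries cannot pass the threshold and was not used.

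The comparison and the gene lists were chosen with earlier results of these data known. Named genes were Pparg and Foxp3, every called gene but 1, the 12 genes of smallest p on each side that did not pass, up to 5 members of smallest p per list, the 10 leading genes of the tissue difference and genes found in 1 genotype only; pseudogenes, predicted genes, sex-linked genes and segments of antigen receptors were counted but not named, and 1 gene called lower in spleen and a few other genes are not reported here. The remaining genes called in the tissue difference are named as flagged results. Alternatives were RLE and upper-quartile scaling, no filter, a filter of 5 CPM, DESeq2 1.42.0, limma-voom (limma 3.58.1), no robust estimation, replicate blocks, the spleen libraries alone and leaving out each library; an offset for GC content, alone or together with the block, was added after seeing the data.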

Additional observations from a re-analysis of the deposited data

Results flagged for a closer look

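In 12 genes the effect of Pparg loss differed between spleen and skin by a test of the difference itself (edgeR, adjusted p under 0.05); values are the spleen log2 fold change minus the skin log2 fold change. For Vars the difference was -2.06 (adjusted p = 0.00446), for Psmd3 -3.23 (0.0114), for Zdhhc3 -1.58 (0.0202), for Peli1 -1.45 (0.0257) and for Unc119b -1.94 (0.0257), all lower in KO spleen as described above. Rrs1, a ribosome assembly factor gene, had spleen levels of 46.1 and 36.3 CPM in WT and 19.7 and 9.49 CPM in KO and skin levels of 2.71 and 4.98 CPM in WT and 19.3 and 16.9 CPM in KO, so the libraries moved in opposite directions in the 2 tissues (difference -3.61, 0.0114). Tpi1, a glycolytic enzyme gene, did so as well, with spleen levels of 167 and 169 CPM in WT and 132 and 116 CPM in KO and skin levels of 996 and 1131 CPM in WT and 1492 and 1417 CPM in KO (difference -0.89, 0.0202). Tcf7, a transcription factor of resting T cells, was high in every spleen library (279.7 and 303 CPM in WT, 349 and 327 CPM in KO) and low in WT skin (4.93 and 11.0 CPM), where KO reached 34.1 and 32.0 CPM (difference -1.83, 0.0202). The receptor gene Cd96 followed the same order, with spleen levels of 253 and 247 CPM in WT and 264 and 294 CPM in KO and skin levels of 25.4 and 27.8 CPM in WT and 69.8 and 66.4 CPM in KO (difference -1.18, 0.0202).

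On the other side were Sesn1 (difference 1.03, 0.0257), a stress-induced regulator of growth signalling with spleen levels of 491 and 537 CPM in WT and 609 and 598 CPM in KO, Calcrl (difference 1.89, 0.0257), a peptide receptor gene at 28.8 and 29.2 CPM in WT and 35.1 and 45.3 CPM in KO, and Jup (difference 2.95, 0.0257), which encodes plakoglobin, at 12.4 and 10.3 CPM in WT and 5.13 and 8.54 CPM in KO. These 3 genes did not pass in spleen and were called lower in KO skin. Of the 12 calls, 1 was kept without KO skin replicate 1, 2 without WT skin replicate 1, 2 without WT spleen replicate 2, 3 without KO skin replicate 2, 4 without WT spleen replicate 1 and 8 without KO spleen replicate 2, and the lost ones then had adjusted p-values of 0.0604 to 0.195. All 12 were kept without KO spleen replicate 1 and without WT skin replicate 2. Without robust estimation 6 of the 12 were kept, and the calls of Sesn1, Calcrl and Jup were among those that ended. By limma-voom that of Jup ended (adjusted p = 0.0923). Groups of 2 libraries allow no test for a library that stands apart.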

How the results depend on the processing

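The 35 spleen calls became 154 without the low-count filter, 84 by DESeq2 (7 higher and 77 lower; 2888 genes received no adjusted p), and 149 with a replicate block in a fit to the spleen libraries alone (30 higher and 119 lower). Leaving out 1 library gave 7 to 119. In the other settings the count lay between 29 (upper-quartile scaling) and 51 (replicate block with all libraries): 35 by RLE scaling, 36 with the stricter filter, 42 by limma-voom, 41 without robust estimation, 31 with the spleen libraries alone, 32 with the GC offset and 43 with the GC offset and the block. The replicate number went with the sex of the cells in all 4 groups (Xist in replicate 1, Y-linked genes in replicate 2), and the deviations of same-numbered libraries from their group means correlated at 0.0283 to 0.112, which was not taken as pairing. The fit without the block has no term for sex, so differences between the sexes count as spread in it. With all libraries the block ended none of the 35 calls, and 12 of the 113 uncalled genes covered by the naming rule passed with it, among them Ltb4r1 (adjusted p = 1.57e-07), Tsc22d3 (0.000567), Cxcr6 (0.00522) and Gzmb (0.00803). The calls that ended were 12 by limma-voom, 14 with the spleen libraries alone and 1 (Gpt2) with the block added to the spleen libraries alone. A further 6 each ended with upper-quartile scaling and without robust estimation, and 1 with RLE scaling. With the GC offset 4 ended, and with the GC offset and the block 3 (Sh2b3, Lsm4 and Impa2). By DESeq2, Zan received no adjusted p. The cause was not tested. The 12 calls of the tissue difference became 233 without the filter, 96 by DESeq2, 59 by limma-voom, 8 without robust estimation, 16 with the replicate block and 1 to 146 with a library left out. The 8 calls without robust estimation were all more negative in spleen, and 6 of them were among the 12. Directions turned for Foxp3 (0.04, with -0.0555 without WT spleen replicate 2 and 0.16 without WT spleen replicate 1 as the extremes) and Dgat1 (-0.36, with 0.11 without KO spleen replicate 2 and -0.995 without KO spleen replicate 1). With 2 libraries a group, changes of genes at a few CPM are imprecise, and a gene that did not pass is not shown to be unchanged.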

Other observations

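Further genes just outside the threshold on the lower side were Upf3a, of nonsense-mediated RNA decay, at 38.4 and 34.3 CPM in WT and 16.7 and 10.4 CPM in KO (edgeR adjusted p = 0.0563). Glrx, the glutaredoxin gene, was at 118 and 116 CPM in WT and 83.6 and 70.5 CPM in KO (0.057). N4bp1, an RNA-cleaving regulator of inflammatory signalling, was at 35.6 and 38.9 CPM in WT and 17.8 and 14.5 CPM in KO (0.0572). Sipa1, a regulator of the GTPase Rap and of integrin adhesion, was at 267 and 226 CPM in WT and 137 and 74.0 CPM in KO (0.068). Both KO libraries lay below both WT libraries in these 4 genes, which were named for their small p, and in 19.9% of all tested genes. On the higher side, Tiparp, a target of the aryl hydrocarbon receptor, was at 27.4 and 37.2 CPM in WT and 54.0 and 47.0 CPM in KO (0.168). Myo6, an unconventional myosin, was at 37.7 and 35.5 CPM in WT and 48.8 and 96.3 CPM in KO (0.185), with KO replicate 2 well above the rest. Among interferon-related genes, Gbp4 was at 185 and 226 CPM in WT and 233 and 272 CPM in KO and Parp9 at 119 and 157 CPM in WT and 161 and 202 CPM in KO, with no overlap between the genotypes, and neither passed (0.588 and 0.524).

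Of the 34 genes lower in KO spleen, 6 lie on chromosome 8 (Lamp1, Gpt2, Eri1, Snx20, Lsm4 and Vps37a), which is 17.6% of them against 5.31% of all tested genes. They are spread over the chromosome, from Lamp1 at chromosome 8, 13159161 to 13175338, to Snx20 at chromosome 8, 88626563 to 88636128. Chromosome 8 is given because it held the most of the 34, after the counts of every chromosome were seen, and its share was not tested. In 26 of the 34 (76.5%) KO replicate 2 was below KO replicate 1, against 49.9% of all tested genes. The median GC content of the 34 was 50.5%, against 48.8% of all tested genes with a gene model, and their median transcript length was 3952 bases against 3163. Across 10 equal groups of genes ordered by GC content, the median spleen log2 fold change of all tested genes went from 0.08 in the lowest to -0.05 in the highest, and with the GC offset 31 of the 35 calls were kept.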
